A study of Mus musculus with 6 samples.

Results

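Citrate is made in the mitochondrion, leaves it through a carrier and is split in the cytosol, and some cells also take it up from blood. The account below concerns 9 mouse genes of that route, chosen by symbol from the 55401 genes of a liver RNA count table. They are the plasma membrane carrier genes Slc13a2, Slc13a3 and Slc13a5, the mitochondrial carrier genes Slc25a1 and Slc25a10, and the enzyme genes Acly, Aco1, Cs and Idh1. All 9 had counts in every library and passed the low-count filter. The list was drawn up with the difference between the groups already known, and Slc13a2 and Slc13a5 were among the genes with the largest falls, so levels and differences of the 9 genes are given as a description, without p-values.

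The study measured polyadenylated RNA in fresh liver of C57BL/6 mice in 6 libraries. The 3 OP libraries came from mice given okra polysaccharide (OP), carbohydrate chains prepared from okra, and the 3 HFCF libraries from mice on a diet rich in fat, cholesterol and fructose. The title of the series places the work in fatty liver disease and PPAR-gamma signalling. The labels name neither the diet of the OP mice nor the dose, duration, age or sex, and it is not said that each sample was its own animal, so p-values reflect only the variation among the samples at hand, part of which may be technical. No group on a standard diet was part of the comparison. A liver sample mixes cell types, and fewer cells of a type and less RNA per cell cannot be told apart in these data.

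The SLC13 proteins are sodium-coupled carriers of the plasma membrane. SLC13A5, known as NaCT, prefers citrate and is found mainly in liver, where mice lacking the gene have been reported to resist diet-induced fat storage. SLC13A2 and SLC13A3, known as NaDC1 and NaDC3, prefer dicarboxylates such as succinate. SLC13A2 is best known from the kidney and intestine, and SLC13A3 from the kidney. Inside the cell, citrate synthase, the product of Cs, makes citrate from acetyl-CoA and oxaloacetate, SLC25A1 exports it from the mitochondrion, and ATP citrate lyase, the product of Acly, returns its carbon as acetyl-CoA for fatty acid and sterol synthesis. ACO1 and IDH1 turn cytosolic citrate to 2-oxoglutarate with production of NADPH, and SLC25A10 exchanges malate or succinate for phosphate.

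Total counts ran from 50635853 to 61918541 in the OP libraries and from 46459980 to 58822973 in the HFCF libraries. A level of 3 counts, the limit that a count of 0 allows, was 0.0472 to 0.0625 CPM in OP and 0.0495 to 0.0624 CPM in HFCF, which covers counting error only; CPM are counts scaled to a common library size. The share of counts in mitochondrially encoded genes was 6.41 to 15.0% in OP and 14.3 to 22.3% in HFCF, and its part in the results was not tested beyond a fit with this share as a covariate. Among the 6 hepatocyte markers, Alb and Apoa1 were abundant in all libraries, Ttr rose and Cps1 fell. Tat was lower in every OP library than in any HFCF library, at 484 ± 313 CPM in OP and 1367 ± 259 CPM in HFCF. Tat, Alb, Apoa1 and Hnf4a did not pass the whole-table test given below. The summed level of the list was 44755 to 69312 CPM in OP and 28704 to 48326 CPM in HFCF, most of it Alb.

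Since Slc13a2 is best known from kidney and gut, and Slc13a3 from kidney, markers of those tissues were read beside both genes. The 10 kidney tubule markers summed to 0 to 0.236 CPM in OP and 0.228 to 0.875 CPM in HFCF, with Slc34a1, Slc22a6, Slc5a2 and Slc12a1 at 0 in all 6 libraries. Cubn had 0, 3 and 0 counts in OP and 7, 11 and 12 in HFCF. Slc12a3 had 4, 8 and 0 counts in OP and 4, 12 and 27 in HFCF. Umod had 14 counts in HFCF replicate 3 only, and Kap, Slc22a12 and Aqp2 had 4 counts in 1 OP library each. None of the 10 entered the whole-table test. Of 7 markers of small intestinal epithelium, Lct, Sis, Cdx1 and Cdx2 were at 0 in all 6 libraries. The list summed to 157 to 184 CPM in OP and 98.6 to 109 CPM in HFCF, nearly all of it Fabp2, which liver also expresses. Fabp2 passed the whole-table test as higher in OP, where 3.26% of all tested genes were called higher. Vil1 and Muc2 had at most 28 counts in any library, overlapped between the groups and did not pass.

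The upstream sequences of the SLC13 genes are shown because these 3 genes of 1 family differed between the groups in opposite directions. The 250 bases before the annotated start site are given 5′ to 3′ on the gene's strand, from RefSeq on GRCm38.p6, with matches on either strand to 5 motifs in capitals. The motifs were TGACG (core of the cAMP response element), GCGTG (core bound by the aryl hydrocarbon receptor), CACGTG (an E-box), AGGTCA (a nuclear receptor half-site) and TATAAA (the TATA box); none of them contains another. The stretch of Slc13a2 is chr11:78422235-78422484, minus strand, that of Slc13a5 chr11:72267162-72267411, minus strand, and that of Slc13a3 chr2:165473198-165473447, minus strand.
Slc13a2: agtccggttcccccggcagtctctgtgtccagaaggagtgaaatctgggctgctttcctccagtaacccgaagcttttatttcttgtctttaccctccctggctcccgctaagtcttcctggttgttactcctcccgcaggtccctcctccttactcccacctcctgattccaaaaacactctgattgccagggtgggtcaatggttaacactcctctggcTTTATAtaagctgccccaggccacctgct
Slc13a5: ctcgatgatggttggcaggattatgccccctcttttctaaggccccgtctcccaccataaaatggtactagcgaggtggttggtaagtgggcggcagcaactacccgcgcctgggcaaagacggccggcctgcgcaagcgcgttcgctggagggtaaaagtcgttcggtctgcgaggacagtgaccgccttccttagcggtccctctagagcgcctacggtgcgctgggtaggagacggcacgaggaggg
Slc13a3: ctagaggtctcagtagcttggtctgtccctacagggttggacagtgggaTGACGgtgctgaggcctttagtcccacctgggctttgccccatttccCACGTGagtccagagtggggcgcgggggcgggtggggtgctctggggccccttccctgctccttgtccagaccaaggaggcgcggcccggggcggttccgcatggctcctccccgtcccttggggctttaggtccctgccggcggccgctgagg

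The Slc13a2 stretch held 1 match to TATAAA, as its reverse complement beginning 29 bases before the start. Slc13a3 held 1 TGACG beginning 201 bases before the start, and 1 CACGTG beginning 154 bases before it. Slc13a5 held none of the 5 motifs in this stretch. The printed stretch of Slc13a5 is that of the annotated start listed first. The stretch before a further annotated start, chr11:72266605-72266854, also held none of the 5 motifs. That start had 1 GCGTG, as its reverse complement, 34 bases after it. GC content of the printed stretches was 53.6% for Slc13a2, 61.6% for Slc13a5 and 67.6% for Slc13a3. Over all 32851 RefSeq promoter windows of 300 bases (250 before and 50 after the start), 20.8% held TGACG, 32.4% GCGTG, 7.15% CACGTG, 16.3% AGGTCA and 13.6% TATAAA. The window of Slc25a1 held 5 GCGTG, 1 CACGTG and 1 TGACG, and that of Acly 1 GCGTG and 1 AGGTCA. Each annotated window of Idh1 held 1 GCGTG, while those of Slc25a10, Aco1 and Cs held none. The matches are letters only and say nothing of binding.

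The plasma membrane carriers showed the widest differences among the 9 genes. Slc13a2 was 10.3-fold and Slc13a5 10.2-fold lower in OP liver, and Slc13a3 was 3.11-fold higher. Slc13a2 had 14, 15 and 11 counts in the OP libraries and 122, 67 and 196 counts in the HFCF libraries. On the CPM scale its level was 0.233, 0.236 and 0.229 in OP, against 2.53, 1.39 and 3.24 in HFCF. The OP libraries lay well below every HFCF library, whose values spread more than 2-fold. At 11 to 15 counts per OP library the counting error is wide, so the closeness of the OP values says little. Means were 0.233 ± 0.00347 CPM in OP and 2.39 ± 0.930 CPM in HFCF (SD, n = 3 each), a log2 fold change of -3.35 ± 0.44 (SE).

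Slc13a5, the liver citrate carrier, had 16, 17 and 17 counts in OP and 148, 206 and 101 counts in HFCF. Its level was 0.267, 0.267 and 0.354 CPM in OP, against 3.07, 4.28 and 1.67 CPM in HFCF. All OP libraries were below all HFCF libraries. Means were 0.296 ± 0.0502 CPM in OP and 3.01 ± 1.31 CPM in HFCF, a log2 fold change of -3.34 ± 0.45. Although both genes were low in OP, they did not run together within HFCF: replicate 3 was the highest for Slc13a2 and the lowest for Slc13a5, and replicate 2 the lowest for Slc13a2 and the highest for Slc13a5.

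Slc13a3, the dicarboxylate carrier gene of the same family, ran the other way. Its level was 24.0, 23.9 and 29.9 CPM in OP, against 8.36, 8.07 and 8.62 CPM in HFCF. The HFCF libraries were nearly level, and OP replicate 3 stood above the other OP libraries. Means were 25.9 ± 3.41 CPM in OP and 8.35 ± 0.276 CPM in HFCF, a log2 fold change of 1.63 ± 0.15. With 1438, 1523 and 1434 counts in OP and 403, 388 and 522 counts in HFCF, this gene rested on far more counts than Slc13a2 or Slc13a5 in OP.

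**Figure D1:**
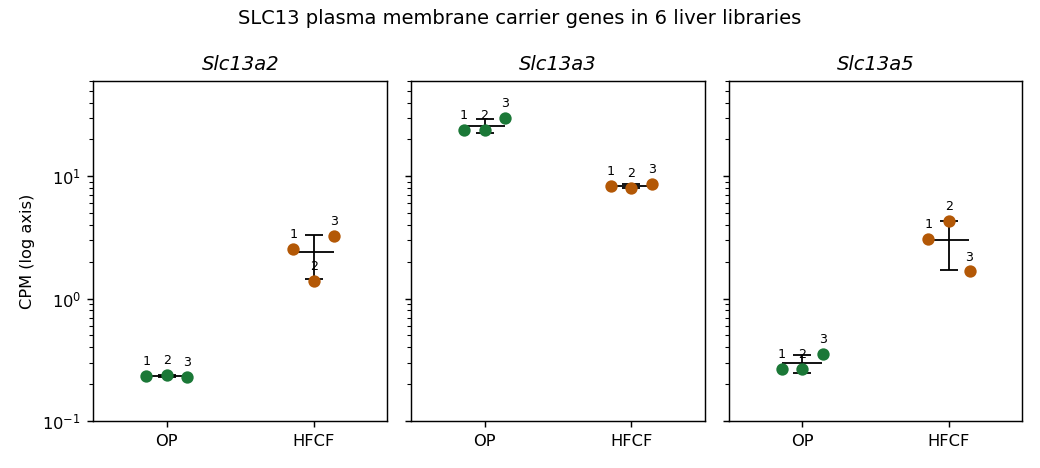
CPM (log axis) of Slc13a2, Slc13a3 and Slc13a5 in each library; points are libraries labelled by replicate number, the horizontal line is the group mean and the bars its SD. Slc13a2 and Slc13a5 lie between 0.229 and 0.354 CPM in OP and between 1.39 and 4.28 CPM in HFCF, and Slc13a3 lies higher in OP than in HFCF.

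Levels can be compared between genes only per length, here as CPM per kilobase of annotated exon. The 3 SLC13 genes summed to 4.75, 4.74 and 5.89 CPM per kilobase in OP, against 3.27, 2.99 and 3.33 in HFCF. Slc13a3 made up 96.9 ± 0.209% of that sum in OP and 50.1 ± 1.44% in HFCF. Slc13a2 made up 1.904 ± 0.253% in OP and 30.5 ± 10.6% in HFCF, and Slc13a5 1.16 ± 0.0446% in OP and 19.4 ± 9.43% in HFCF. In HFCF the share of Slc13a3 held between 49.0 and 51.7%, while the remainder was divided unevenly, with Slc13a5 at 19.0, 29.0 and 10.1% of the sum in replicates 1 to 3. The summed level was thus higher in every OP library, with 1 gene in place of a mixture.

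**Figure D2:**
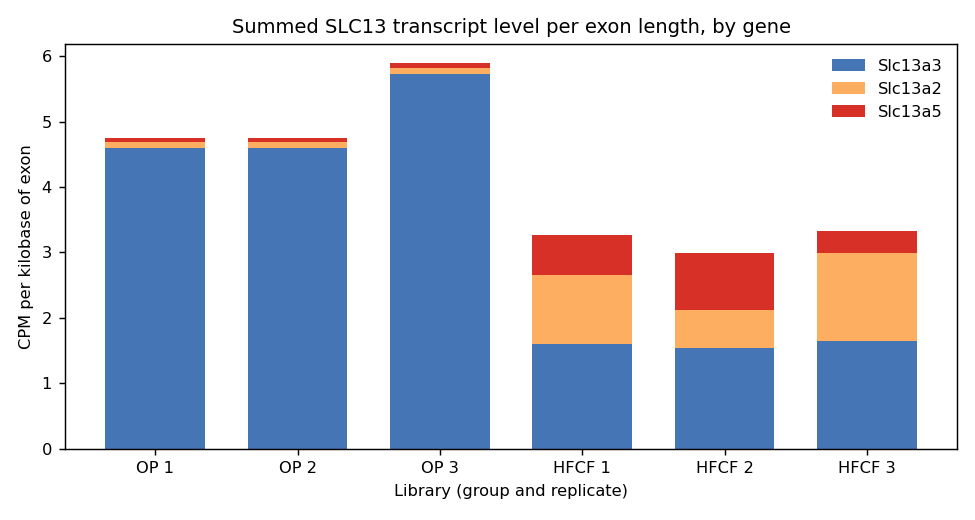
Summed level of Slc13a2, Slc13a3 and Slc13a5 (CPM per kilobase of exon) in each library, with OP replicates 1 to 3 at the left and HFCF replicates 1 to 3 at the right; colours are genes. OP bars reach 4.74 to 5.89 and are almost wholly Slc13a3, and HFCF bars reach 2.99 to 3.33 with Slc13a3 at 49.0 to 51.7% of each.

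Exons of 3 of the 9 genes overlap a gene on the opposite strand in GENCODE M21, and the sources used here do not give whether the counting used strand. Slc13a2 shares 632 exon bases with Slc13a2os, which had 0 counts in each OP library and 13, 10 and 35 counts in HFCF. The HFCF mean of Slc13a2os was 6.61-fold above the level of 3 counts in OP. This figure leaves out the counting error of the HFCF libraries. It would be smaller if a read pair was entered as several counts. Reads of Slc13a2 and Slc13a2os cannot be told apart without strand; their summed counts gave a log2 fold change of -3.54. Slc13a5 shares 473 exon bases with 1700051A21Rik, which had 0 counts in every OP library and 4, 0 and 0 counts in HFCF. Slc25a10 shares 228 exon bases with Gm11788, which had 20, 34 and 31 counts in OP and 30, 12 and 33 counts in HFCF, few beside the counts of Slc25a10 itself.

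The mitochondrial carriers were abundant, and their libraries overlapped between the groups. Slc25a1, the citrate exporter, was at 157, 162 and 119 CPM in OP, against 93.7, 87.6 and 122 CPM in HFCF. OP replicate 3 was lower than HFCF replicate 3, and the other OP libraries were above all HFCF libraries. Means were 146 ± 23.2 CPM in OP and 101 ± 18.3 CPM in HFCF, a log2 fold change of 0.53 ± 0.18. Slc25a10, the dicarboxylate carrier, was at 287, 306 and 243 CPM in OP, against 251, 227 and 269 CPM in HFCF. Its groups were interleaved, and the log2 fold change was 0.16 ± 0.15.

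Of the 4 enzyme genes, 3 were higher in OP. Idh1, the cytosolic isocitrate dehydrogenase, was at 244, 261 and 250 CPM in OP, against 133, 133 and 149 CPM in HFCF. Both groups were narrow and did not overlap, with means of 252 ± 8.65 CPM in OP and 138 ± 9.09 CPM in HFCF and a log2 fold change of 0.86 ± 0.13. Aco1, the cytosolic aconitase that also binds iron-responsive elements when it lacks its iron-sulphur cluster, was at 150, 146 and 122 CPM in OP, against 87.6, 81.6 and 96.2 CPM in HFCF, a log2 fold change of 0.65 ± 0.14. Cs, which makes citrate, was at 99.7, 108 and 96.8 CPM in OP, against 62.4, 64.0 and 73.6 CPM in HFCF, a log2 fold change of 0.61 ± 0.13. For Aco1 the nearest libraries of the groups were OP replicate 3 and HFCF replicate 3, and the same held for Cs.

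Acly, the cytosolic enzyme that splits citrate, did not share this direction. It was at 37.4, 33.2 and 27.8 CPM in OP, against 44.3, 42.0 and 34.2 CPM in HFCF. The groups overlapped only through HFCF replicate 3, and the log2 fold change was -0.29 ± 0.16. Per length, Acly stood at 0.353 ± 0.0509 of the level of Cs in OP and at 0.668 ± 0.141 in HFCF. This ratio is formed within a library, so library scaling cancels in it. The range was 0.314 to 0.411 in OP and 0.509 to 0.777 in HFCF. Against Slc25a1 the ratio of Acly was 0.0925 ± 0.00740 in OP and 0.168 ± 0.0464 in HFCF.

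**Figure D3:**
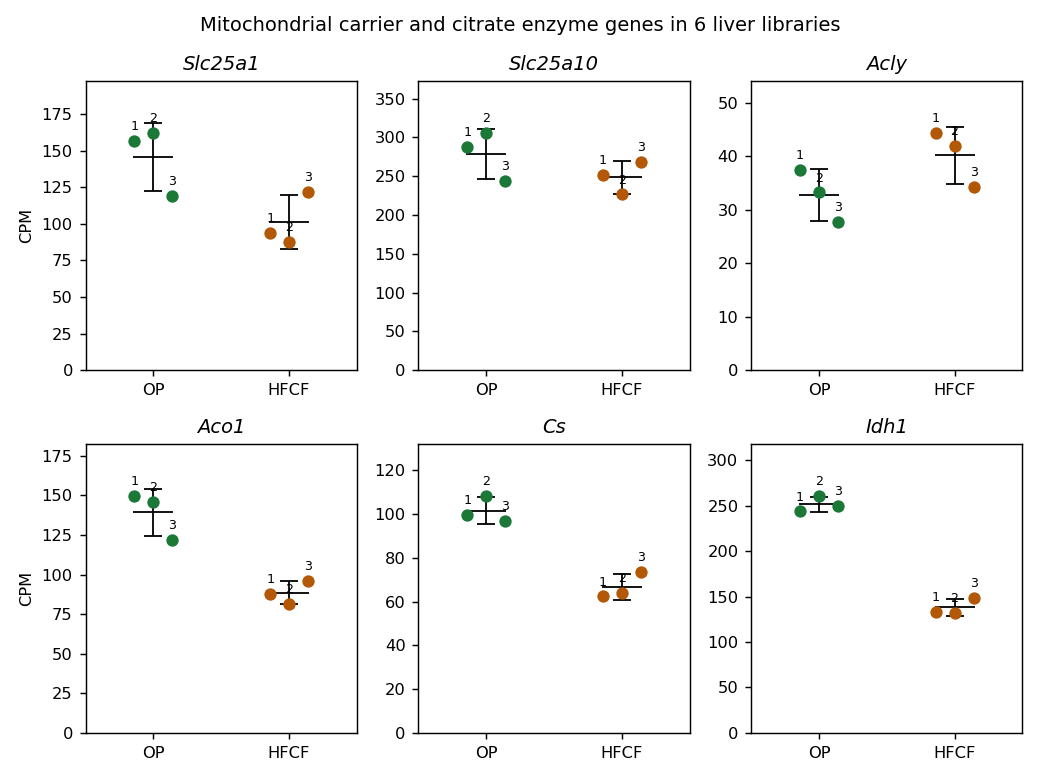
CPM (linear axes from 0) of the mitochondrial carrier genes Slc25a1 and Slc25a10 and of the enzyme genes Acly, Aco1, Cs and Idh1; points are libraries labelled by replicate number, lines are group means and bars SDs. The groups do not overlap for Aco1, Cs and Idh1 and overlap for Slc25a1, Slc25a10 and Acly.

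Ranked per length, Idh1 (90.8 ± 3.12 CPM per kilobase), Slc25a10 (80.7 ± 9.24) and Slc25a1 (67.4 ± 10.7) led in OP, and Slc25a10 (72.1 ± 6.16), Idh1 (49.9 ± 3.28) and Slc25a1 (46.7 ± 8.47) led in HFCF. In both groups Aco1, Cs, Acly, Slc13a3, Slc13a2 and Slc13a5 followed in that order. Neighbours in the order whose libraries overlapped were Idh1 with Slc25a10, Slc25a10 with Slc25a1 and Acly with Slc13a3 in OP. In HFCF they were Idh1 with Slc25a1 and Slc13a2 with Slc13a5. Acly and Slc13a3 were at 6.21 ± 0.917 and 4.97 ± 0.653 CPM per kilobase in OP, and at 7.61 ± 1.005 and 1.60 ± 0.0530 in HFCF.

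Across the whole table, the quasi-likelihood test of edgeR, Benjamini-Hochberg adjusted over 17394 genes, placed 6 of the 9 genes past an adjusted p of 0.05, Slc13a3, Aco1, Cs and Idh1 higher and Slc13a2 and Slc13a5 lower, where 6.73% of all tested genes were called. Higher calls made up 3.26% and lower calls 3.47% of all tested genes. The same 6 genes had libraries that did not overlap between the groups, as did 31.2% of all tested genes. Because the genes were chosen with this contrast known, nothing is read from these counts. The median log2 fold change was 0.53 over the 9 genes and 0.019 over all tested genes. Of these 6 genes, only Slc13a3 stayed past the threshold whichever library was left out. Slc13a2 missed it without HFCF replicate 1 (-3.30), and Slc13a5 without OP replicate 1 (-3.27), HFCF replicate 1 (-3.32) or HFCF replicate 2 (-3.02). Idh1 missed it without OP replicate 1 (0.89), HFCF replicate 1 (0.84) or HFCF replicate 2 (0.80). Without OP replicate 1, OP replicate 2, HFCF replicate 1 or HFCF replicate 2, both Aco1 (0.56 to 0.65) and Cs (0.54 to 0.62) missed it.

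**Figure D4:**
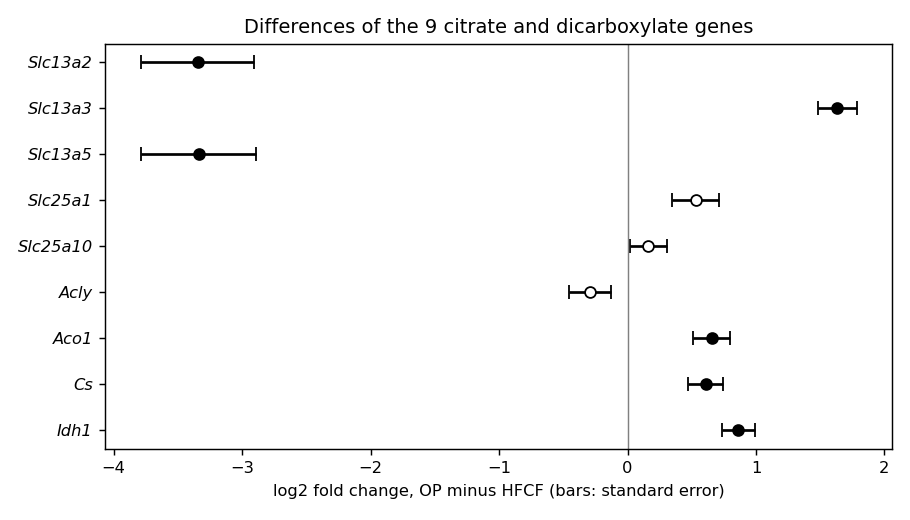
log2 fold change (OP minus HFCF) of the 9 genes with standard errors from the edgeR fit; filled points passed the whole-table threshold and open points did not. Slc13a2 (-3.35) and Slc13a5 (-3.34) lie far to the left, Slc13a3 (1.63) to the right, and Slc25a1, Slc25a10 and Acly are open.

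Over the 6 libraries, Slc13a2 and Slc13a5 had a Pearson r of 0.89 on the log2 CPM scale, and Slc13a3 an r of -0.96 with each of them. Cs and Idh1 had an r of 0.99, and Acly had an r of -0.72 with both. These values describe 6 points in 2 groups that share libraries, so a difference between the groups alone gives a high r. Among 11868 genes compared, the 5 closest to Slc13a2 were Naf1, Ap3b1, Erf, Ufd1 and Rest, with r from 0.989 to 0.999. The 5 closest to Slc13a5 were Atp10d, Ankrd16, Lepr, Sorbs2 and Rasa3, with r from 0.994 to 0.997. Of these 10 genes, Lepr, the leptin receptor gene, had the log2 fold change nearest in size to that of Slc13a5, at -3.89, and the others lay between -1.47 and -0.40.

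The other genes of the route were taken from lists drawn by function, with earlier results of these data known. Thrsp and Fasn were among the genes named in those results, so counts and adjusted p of these lists are given as a description. Of 61 tested genes, 6 rose, 3 fell and 52 did not pass, with a median log2 fold change of 0.25. Over all tested genes of the table, 3.26% rose and 3.47% fell, with a median of 0.019. Without OP replicate 1, HFCF replicate 1 or HFCF replicate 2, 1 pathway gene rose. All adjusted p of the pathway genes come from that same edgeR fit over the whole table. In the SLC13 family, Slc13a4, which encodes a sulphate carrier, rose to 1.36 ± 0.316 CPM in OP, against 0.109 ± 0.115 CPM in HFCF (log2 fold change 3.61 ± 0.88, adjusted p = 0.0474). Its counts were 60, 93 and 77 in OP and 0, 11 and 6 in HFCF, and it missed the threshold whichever library was left out (3.05 to 4.59). Slc13a1, the other sulphate carrier gene, had 0, 4 and 13 counts in OP and 0 counts in each HFCF library and was not tested.

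Among 13 other mitochondrial carriers of carboxylates, 2 rose and 1 fell. Slc25a22, a glutamate carrier, fell to 186, 157 and 134 CPM in OP, against 765, 607 and 459 CPM in HFCF (log2 fold change -1.94 ± 0.22, adjusted p = 0.00458), and it stayed past the threshold whichever library was left out but missed it with the mitochondrial share as a covariate (-1.76). Mpc1, a subunit of the mitochondrial pyruvate carrier, rose to 227 ± 18.9 CPM in OP, against 129 ± 3.03 CPM in HFCF (0.81 ± 0.13, adjusted p = 0.0132). Its partner Mpc2 did not pass, at a log2 fold change of 0.23. Slc25a30 was at 27.5, 31.9 and 165 CPM in OP, against 10.6, 11.6 and 13.6 CPM in HFCF (2.64 ± 0.65, adjusted p = 0.0486). OP replicate 3 set much of that size, and without it the log2 fold change was 1.31. The gene missed the threshold without OP replicate 1 or any one of the HFCF libraries. The median over these carriers was 0.09.

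Among 17 other enzymes of the tricarboxylic acid cycle, 1 rose, 1 fell and 15 did not pass. Suclg2, the GTP-forming succinyl-CoA ligase subunit, rose to 199 ± 5.98 CPM in OP, against 97.3 ± 15.5 CPM in HFCF (1.04 ± 0.15, adjusted p = 0.0104). Fh1, the fumarase gene, fell to 118 ± 16.0 CPM in OP, against 200 ± 28.2 CPM in HFCF (-0.76 ± 0.17, adjusted p = 0.0356), and missed the threshold whichever library was left out (-0.91 to -0.65). Suclg1, the subunit shared by both succinyl-CoA ligases, was at 206 ± 60.0 CPM in OP and 164 ± 10.9 CPM in HFCF (adjusted p = 0.395). Idh2, the mitochondrial counterpart of Idh1, did not pass, with a log2 fold change of 0.28 ± 0.24. The median of the list was 0.32.

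Pyruvate enters the cycle through pyruvate dehydrogenase or pyruvate carboxylase. Of 11 genes of this step, Pdha1, a catalytic subunit of the dehydrogenase, rose to 93.4 ± 6.90 CPM in OP, against 60.5 ± 7.34 CPM in HFCF (0.63 ± 0.14, adjusted p = 0.0409), and the other 10 did not pass. The list's median was 0.37. Mpc1 and Suclg2 missed the threshold without OP replicate 1, HFCF replicate 1 or HFCF replicate 2, and Pdha1 also without OP replicate 2.

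Of 12 genes listed around the cytosolic use of citrate carbon and the supply of NADPH, 1 rose, 1 fell and 10 did not pass. Neither called gene encodes an enzyme that acts on citrate or forms NADPH. Thrsp, a gene tied to lipogenesis, rose to 106, 45.4 and 59.5 CPM in OP, against 8.83, 9.65 and 9.25 CPM in HFCF (2.92 ± 0.30, adjusted p = 0.00340). Got1, the cytosolic aspartate aminotransferase, fell to 90.3, 99.6 and 51.6 CPM in OP, against 554, 377 and 529 CPM in HFCF (-2.60 ± 0.27, adjusted p = 0.00361). Both stayed past the threshold whichever library was left out. The genes next to Acly in the path, Acaca (0.03 ± 0.19), Acacb (-0.58 ± 0.22), Fasn (0.86 ± 0.23) and Acss2 (0.01 ± 0.16), did not pass. The list's median was 0.20.

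None of 7 genes for factors reported to act on Slc13a5 passed, with a median of -0.12. Reports come from human hepatocytes for the pregnane X receptor (Nr1i2) and for interleukin 6 signalling, and from rat hepatocytes for glucagon through CREB (Creb1) and for the aryl hydrocarbon receptor (Ahr). At an adjusted p of 0.376 Nr1i2 was at 117 ± 32.4 CPM in OP and 94.3 ± 9.13 CPM in HFCF, and at 0.404 Creb1 was at 10.8 ± 2.28 CPM in OP and 13.0 ± 0.757 CPM in HFCF.

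**Figure D5:**
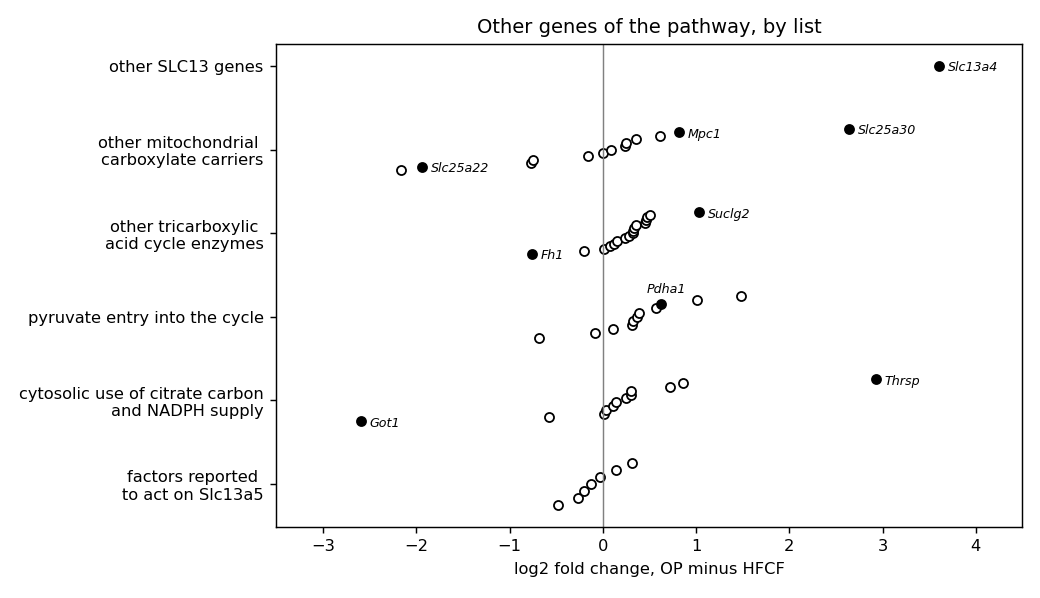
log2 fold change (OP minus HFCF) of the 61 tested genes outside the 9, 1 row per list; filled points passed the whole-table threshold and are named, open points did not. Points within a row are spread vertically in order of fold change, and Got1 (-2.60) and Slc25a22 (-1.94) are the filled points farthest to the left.

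Other cell type markers differed between the groups in places, where 3.26% of all tested genes rose and 3.47% fell. The 4 red cell genes summed to 132 to 344 CPM in OP and 887 to 1719 CPM in HFCF, and all 4 fell. Of 7 periportal hepatocyte markers 3 fell (Sds, Hal and Gls2) and 4 did not pass. Of those 4, Pck1 had a log2 fold change of -1.53, and Cyp2f2 (0.14), Hsd17b13 (0.35) and Aldh1b1 (0.39) lay above 0. The list summed to 1150 to 3377 CPM in OP and 5034 to 6187 CPM in HFCF, most of it Pck1 in HFCF, at 1383 ± 886 CPM in OP and 4008 ± 411 CPM in HFCF. Of 7 pericentral markers 2 rose (Lect2 and Rgn) and 5 did not pass, from -0.50 for Axin2 to 0.77 for Cyp2e1. The list summed to 14487 to 16105 CPM in OP and 8834 to 10994 CPM in HFCF, most of it Cyp2e1. Kupffer cell markers summed to 108 to 176 CPM in OP and 187 to 274 CPM in HFCF. Cholangiocyte, stellate cell and sinusoidal endothelium lists overlapped between the groups in their sums. Adipocyte markers summed to 2.20 to 6.13 CPM in OP and 0 to 1.44 CPM in HFCF. In OP replicate 1 the whole adipocyte sum was Cidea, with Adipoq, Plin1 and Lep at 0 counts. Only Cidea of that list had groups that did not overlap, at 2.07 ± 0.437 CPM in OP and 0.132 ± 0.229 CPM in HFCF. Of all tested genes, 31.2% had groups that did not overlap. None of the tested Kupffer cell, cholangiocyte, stellate cell, sinusoidal endothelium and adipocyte markers passed. The part of these cell types and zones in the levels of the 9 genes was not tested.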

How the data were processed

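Polyadenylated liver RNA was made into dUTP second-strand libraries and sequenced in pairs, per the labels' protocols. Cutadapt 1.9, FastQC and genome build GRCm39 are named in the submitters' processing notes; for the aligner, counter and strand setting the sources used here give nothing. Counts were deposited by the authors as whole numbers, unnormalized, in 1 table of 6 library columns. Counts of 4 outnumbered those of 3 and 5 throughout (909 genes, 482 and 257 in OP replicate 1), so a read pair may have been entered as several counts, which would overstate depth and understate the detection limit of 3 counts.

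The 9 genes, the pathway and marker lists, and the alternatives were chosen with earlier results of these data known, and Thrsp, Fasn and several markers were named in those results. Of 55401 identifiers, 55141 had a symbol in the table used. GENCODE M21 (GRCm38, another build than the submitters') gave exon lengths and overlaps only. All 9 genes had an entry in the RefSeq promoter table. Protein sequences were not analysed here.

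Samples were grouped by their descriptions. Of 27893 genes with any count, 17394 passed filterByExpr. Libraries were scaled by TMM, and OP minus HFCF was tested two-sided with edgeR 4.0.16 (glmQLFit, glmQLFTest; R 4.3.3), Benjamini-Hochberg adjusted at a threshold of 0.05. A standard error is the log2 fold change divided by the root of the F statistic. Log2 CPM used a prior count of 2. On counts simulated for OP minus HFCF over 17088 genes, the test called 95 of 95 genes changed 4-fold, 46 of 97 changed 2-fold and 6 of 16896 unchanged genes. Every simulated gene had the same spread between libraries beyond counting error, a dispersion of 0.05. The recovery therefore does not carry over to genes that vary more between libraries. Named pathway genes were all that passed, otherwise the 2 of smallest p in a list, and the gene of highest CPM, summed over both group means and without length correction, in the carrier (Slc25a22), cycle (Suclg1) and cytosolic (Got1) lists, which within a single group can be another gene; the closest genes were the 5 highest Pearson r among genes of at least 1 CPM with a named symbol. Mpc2, Slc13a1, Pck1, Cyp2f2, Hsd17b13, Aldh1b1, Axin2, Cyp2e1, Idh2, Acaca, Acacb, Fasn, Acss2, Ahr and the ratios of Acly were named after their values were seen. The same holds for Tat, Hnf4a, Cidea, Adipoq, Plin1, Lep, Cubn, Slc12a3, Umod, Kap, Slc22a12, Aqp2, Vil1 and Muc2. Replicates were compared by the chi-square per degree of freedom of their counts, which was 46.2 for HFCF replicates 1 and 2 and 148 to 350 for the other pairs within groups, so none agreed within sampling noise. Alternatives were DESeq2 1.42.0, upper quartile and RLE scaling, mitochondrially encoded genes left out, the replicate number as a block, no low-count filter, 1 CPM in 3 libraries, the mitochondrial share as a covariate, counts divided by 4, leaving out each library, adjusted p of 0.01 and 0.1, and Slc13a2 summed with Slc13a2os. Figures were drawn with matplotlib 3.10.9.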

Additional observations from a re-analysis of the deposited data

How the results depend on the processing

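Slc13a3 stayed past the whole-table threshold under all 15 of its alternatives (1.52 to 1.80), Slc13a2 under 15 of 16 (-3.65 to -3.06) and Slc13a5 under 11 of 15 (-3.63 to -2.56). None of the 6 called genes changed sign. Slc13a5 missed the threshold with the mitochondrial share as a covariate (-2.56), as did Idh1 (0.77), Aco1 (0.41) and Cs (0.42). The cause was not tested. The share was lower in OP than in HFCF for every pair of libraries but OP replicate 3 (15.0%) and HFCF replicate 3 (14.3%). With 6 libraries this fit can hardly tell the share from the group. Under the covariate Slc25a1 was at 0.07 and Slc25a10 at -0.08. Slc25a1, Slc25a10 and Acly passed the threshold under none of 15. Aco1 and Cs also missed it with no low-count filter or the replicate block, and Idh1 with the block. With the covariate, Suclg1 changed sign (-0.29), Slc13a4 (3.53), Slc25a22 (-1.76), Mpc1 (0.71), Suclg2 (0.79), Fh1 (-0.996) and Pdha1 (0.43) missed the threshold, and Got1, Thrsp and Slc25a30 passed. Got1 and Thrsp passed under all 15 alternatives, and Slc25a30 under 8 of 15. Slc25a30 also missed the threshold with RLE scaling (2.64), no low-count filter (2.62) or the block (2.12). The block gave 87 genes higher and 93 lower over the whole table, against 567 and 603 without it. It gave 1 pathway gene higher against 6. Same-numbered libraries had deviations from their group means with r of 0.023, -0.126 and -0.164. Libraries of unlike number had r from -0.152 to 0.248. With 3 libraries per group, these values cannot decide whether the numbers pair the samples. The counts of genes higher and lower were 298 and 400 with no low-count filter, 134 and 112 with the covariate, 1269 and 1265 with DESeq2, 72 and 92 at an adjusted p under 0.01, 1322 and 1230 under 0.1, and 34 to 655 higher and 54 to 655 lower over the libraries left out. Pathway genes higher were 3 with no filter, 2 with the covariate and 1 at 0.01, and 1 to 9 over the libraries left out; those lower were 1 with the covariate and 5 at 0.1. Median shifts of all genes stayed within 0.1. With 11 to 17 counts per OP library, Slc13a2 and Slc13a5 have wide counting error there.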
